A study of Homo sapiens with 16 samples.

Results

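Hyaluronan is a long sugar chain of the extracellular matrix, and 8 human genes of its synthesis, breakdown and recognition were followed here across 4 derivatives of the human prostate cancer line PC-3, an established cell line, grown as tumours in mice. The genes are HAS2 and HAS3, HYAL1, HYAL2 and HYAL3, CD44, HMMR and UGDH, which are 8 of the 20282 genes measured and are read by 23 of 41476 probe sets that name 1 gene. All rows of the array table whose gene symbol is exactly one of these names were taken, and the probe sets of a gene were averaged. HAS2 was chosen by its array signal, because it stood among the strongest rises in tumours with long telomeres, so its values in the comparisons of long with short telomeres are given as a description without a test. The other 7 were picked for their role.

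RNA of 16 subcutaneous xenografts was measured, 4 independent tumours for each line, on 1 array each. LhTERTL cells had long telomeres, and exogenous hTERT, telomerase's catalytic subunit, was present in them. LhTERTL/cre+ cells had long telomeres with the exogenous hTERT absent. The mock cells and the mock/cre+ cells were controls with short telomeres, and exogenous hTERT was absent from both. By their names the cre+ lines had the recombinase Cre, and LhTERTL and mock did not. Mock/cre+ and mock thus differ in Cre, and LhTERTL/cre+ and LhTERTL differ in Cre and exogenous hTERT together. The hosts were female nude mice of BALB/c background, 5 weeks old at injection, and tumours were taken once they measured at least 5 mm across. All 4 lines derive from PC-3, and 100 ng of total RNA went into each labelling. As 1 line stands for each group, telomere length cannot be told apart from any other difference between lines, and exogenous hTERT differs along with telomere length between LhTERTL and mock. Signals are log2 values centred for each probe set on its median over the 16 tumours. They show differences between tumours but no level of a gene, so whether prostate markers are present could not be checked against the labelled origin. In such bulk RNA, fewer cells of a type and less RNA per cell cannot be told apart.

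Hyaluronan synthases sit in the plasma membrane and join UDP-glucuronate and UDP-N-acetylglucosamine into a chain that is pushed out of the cell. HAS2 makes long chains in many tissues and HAS3 is a second synthase, while UGDH oxidises UDP-glucose to the UDP-glucuronate that they use. HYAL2, a membrane-anchored hyaluronidase, and HYAL1, a lysosomal one, cut the chain, and HYAL3 is a relative of them. CD44 is the main cell surface receptor of hyaluronan. HMMR, also called RHAMM, binds hyaluronan but works inside dividing cells as a spindle protein.

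The array controls were uneven in several respects that touch the values below. By 1 of its 2 probe sets, TERT averaged 3.10 ± 0.31 (SD, n = 4) in LhTERTL tumours, against 0.01 ± 0.21 in LhTERTL/cre+, -0.03 ± 0.11 in mock and -0.17 ± 0.36 in mock/cre+ tumours, while the second probe set was not highest in LhTERTL. The log2 ratio of 3' to 5' signal of the GAPDH and beta-actin controls, a sign of RNA quality, averaged 0.64 ± 0.39 in mock/cre+ tumours, against 0.07 ± 0.18 in mock tumours. That difference was 0.57, with p = 0.0286 by a two-sided exact permutation test, which can give no smaller p with 4 tumours a side (adjusted p = 0.0476 over 5 comparisons). The ratio also moved with telomere length: it was lower by the same test in the cre+ pair (-0.71, p = 0.0286, adjusted p = 0.0476) and in the 8 long against the 8 short tumours (-0.43, permutation p = 0.0085, adjusted p = 0.0427), while LhTERTL and mock differed by -0.15 (adjusted p = 0.357). Poly-A spike signal was high on 5 arrays, at least 1 in each line, and low on 11. Tumour LhTERTL/cre+ 4 stood apart from the other 3 of its line: 125 genes lay more than 1 log2 unit from the mean of those 3, against 59 for LhTERTL/cre+ 2 and 48 for mock 3, the next highest.

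Of the 7 members that could be tested between long and short telomeres, averaged over the pairs LhTERTL with mock and LhTERTL/cre+ with mock/cre+, HMMR, HYAL2 and HAS3 rose and UGDH fell. HYAL1, HYAL3 and CD44 did not pass the test, which was limma with Benjamini-Hochberg adjustment over all genes. These 4 of 7 compare with 32.6% of all genes called in that comparison, 18.5% higher and 14.1% lower. The median difference of the 7 was 0.16 on the log2 scale, and that of all genes was 0.02.

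**Figure D1:**
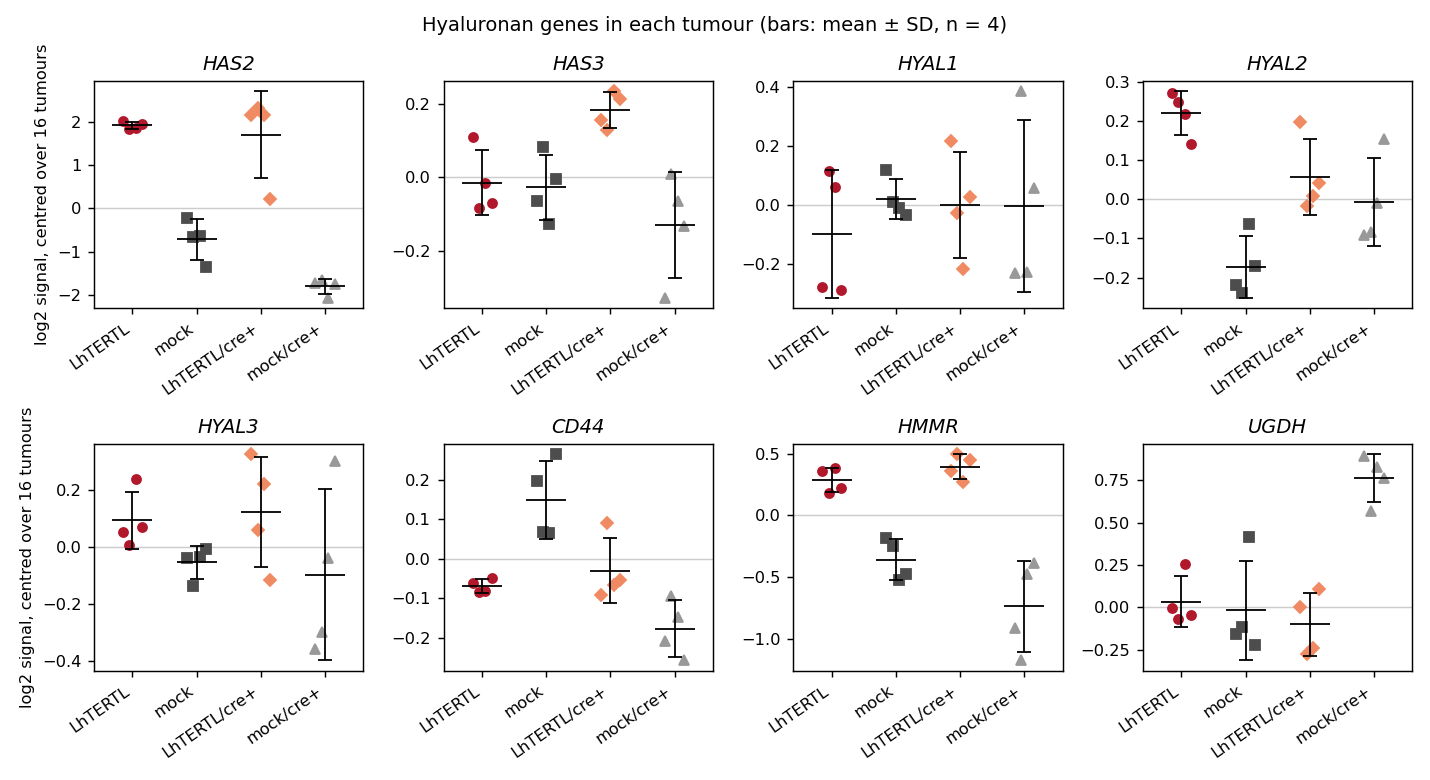
Centred log2 signal of each hyaluronan gene in each of the 16 tumours, by line, with the mean and SD of the 4 tumours as black bars. The vertical axes differ between genes. HAS2 and HMMR had all 8 long-telomere tumours above all 8 short-telomere tumours, and UGDH was high in the 4 mock/cre+ tumours.

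The signal of HAS2, measured by 2 probe sets, was 2.03, 1.84, 1.86 and 1.95 in the 4 LhTERTL tumours, against -0.21, -0.65, -0.63 and -1.35 in the mock tumours. It was 2.15, 2.31, 2.15 and 0.21 in the LhTERTL/cre+ tumours, against -1.72, -1.66, -2.06 and -1.74 in the mock/cre+ tumours. All 8 long-telomere tumours lay above all 8 short-telomere tumours, although LhTERTL/cre+ 4, at 0.21, was far closer to the highest short-telomere tumour, mock 1, than the other 7 were.

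The mean HAS2 difference between long and short telomeres was 3.07 on the log2 scale, or 8.38-fold. It was 2.63 in LhTERTL against mock (6.19-fold) and 3.50 in LhTERTL/cre+ against mock/cre+ (11.3-fold). Ranked by that mean, HAS2 was number 2 of the 1224 genes called higher with long telomeres in both pairs and in their mean, the kind of ranking by which it had been chosen. Without LhTERTL/cre+ 4 the mean difference was 3.32, and 4.0 in the cre+ pair. Adjusted for the 3'/5' ratio it was 2.97, and on the 11 arrays of low spike signal 3.05. Both probe sets gave like values, 3.18 and 2.96.

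Between lines that share a telomere label, long or short, HAS2 could be tested, though the labels give no lengths. HAS2 fell in mock/cre+ against mock tumours, with a mean of -1.80 ± 0.18 in mock/cre+ and -0.71 ± 0.47 in mock (SD, n = 4). The difference was -1.08 ± 0.33 (SE, adjusted p = 0.0298), and all 4 mock/cre+ tumours lay below all 4 mock tumours. HAS2, CD44 and UGDH made 3 of 8 members called in this comparison, against 19.0% of all genes, 9.0% higher and 10% lower, and groups did not overlap for these same 3, against 21.4% of all genes. The HAS2 call lay close to the threshold. It ended without mock 1 (-0.92, adjusted p = 0.102), mock 2 (-1.06), mock 3 (-1.06), mock/cre+ 1 (-1.11), mock/cre+ 3 (-0.997) or mock/cre+ 4 (-1.10), with the difference little changed, and without LhTERTL/cre+ 4 the adjusted p of HAS2 was 0.00019. It also ended with quantile normalisation (-0.61, adjusted p = 0.392), on the low-spike arrays (-1.12, adjusted p = 0.183) and when the fit was adjusted for the 3'/5' ratio (-0.95, adjusted p = 0.240).

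HAS2 averaged 1.71 ± 1.00 in LhTERTL/cre+ and 1.92 ± 0.09 in LhTERTL tumours, a difference of -0.21 ± 0.33 (SE, adjusted p = 0.863). Without LhTERTL/cre+ 4 the sign turned, to 0.29 (adjusted p = 0.455). By limma 0 of the 8 members were called between these lines, against 3.24% of all genes (0.922% higher and 2.32% lower), while HAS3 and HYAL2 had an unadjusted p under 0.05 (0.0175 and 0.0352). Only for HAS3 did the tumours of these lines not overlap, against 9.25% of all genes. The telomere difference of HAS2 in the cre+ pair exceeded that in the other pair by 0.87 ± 0.47 (SE), and by 1.37 without LhTERTL/cre+ 4. Both are given as a description, because HAS2 was chosen by the differences that they compare. HAS2 is still counted among the 8 members for this comparison below, where the main fit did not call it.

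**Figure D2:**
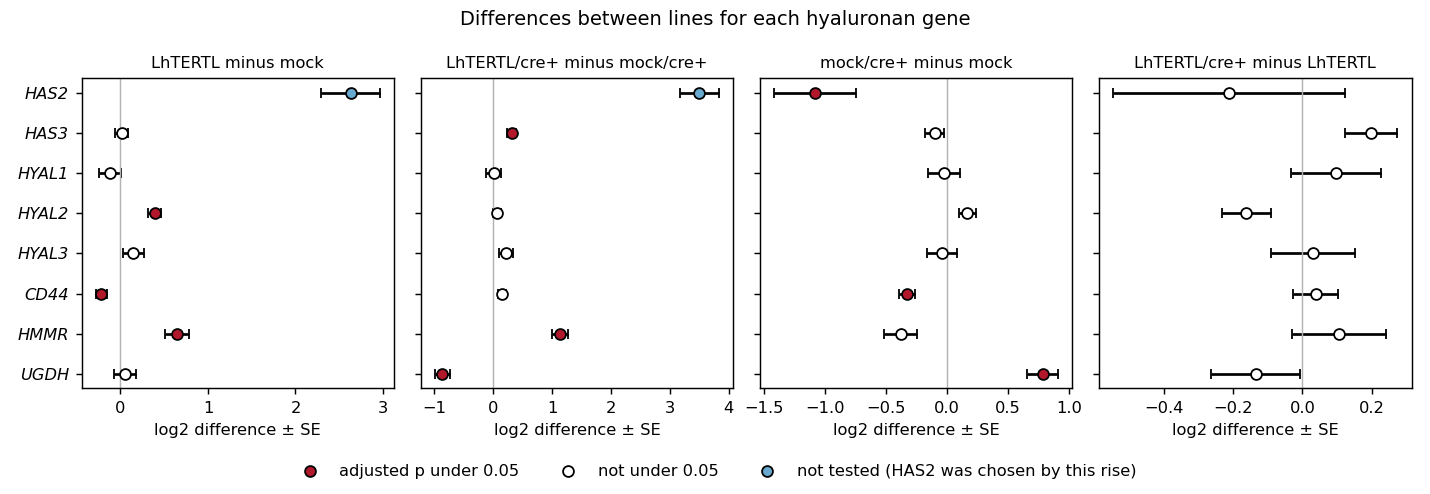
Log2 differences with SE for the 8 members in 4 comparisons of lines, with horizontal scales that differ between panels. Red points passed an adjusted p of 0.05 and white points did not. Blue marks HAS2 where it was not tested because its higher signal there had chosen it. HMMR rose in both comparisons of long with short telomeres, and UGDH was called in both comparisons that hold mock/cre+.

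The 6 genes whose signal followed HAS2 most closely over the 16 tumours, by Pearson's r, were ALDH3A2 (0.985), PRTFDC1 (0.983), NT5DC1 (0.978), PHIP (0.977), SLC16A9 (0.973) and PTS (0.973). All 6 were higher with long telomeres, by 0.56 to 2.64. The 16 tumours share 4 line means, so such an r also holds the contrast between the lines. After removing the mean of each line, r was 0.749 to 0.925, and without LhTERTL/cre+ 4 it was 0.143 to 0.593. Since the genes were picked for their likeness to HAS2 over all 16, that tumour included, they share its drop there by choice: ALDH3A2 was at 0.04 there, against at least 0.58 in the other 7.

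**Figure D3:**
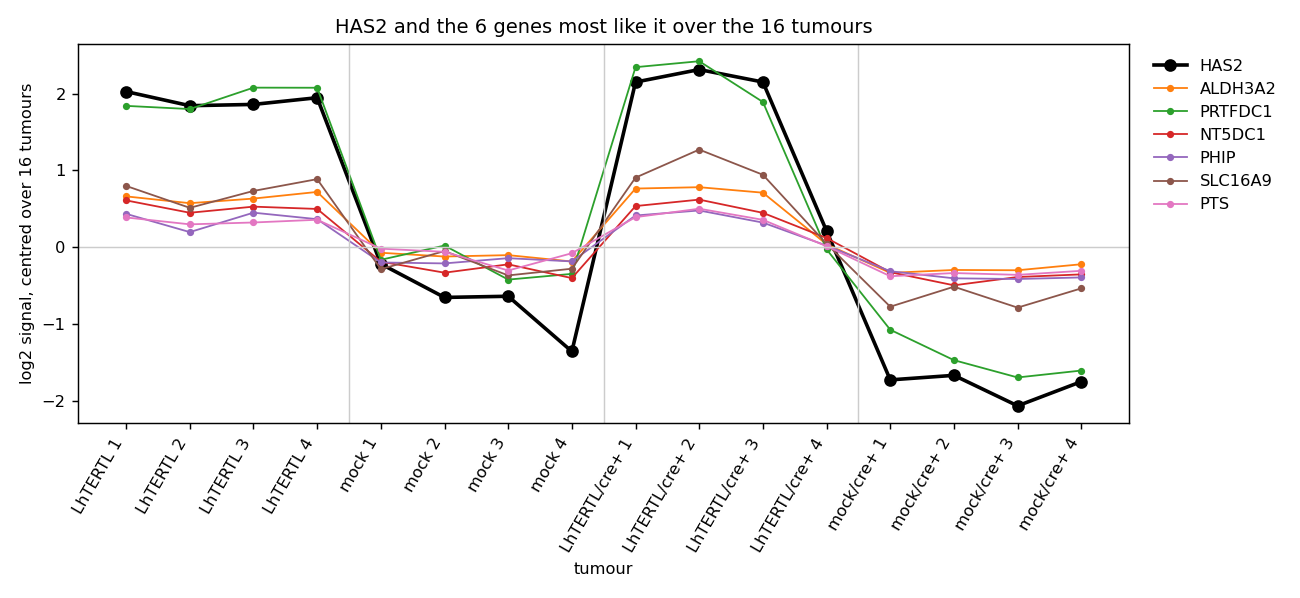
Centred log2 signal of HAS2 and of the 6 genes with the highest Pearson r with it, over the 16 tumours ordered by line. All 7 genes were high in 7 long-telomere tumours and dropped towards the short-telomere values in LhTERTL/cre+ 4.

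HAS3, read by 2 probe sets, was far less variable than HAS2. Its signal was 0.16, 0.13, 0.23 and 0.21 in the LhTERTL/cre+ tumours, against -0.33, 0.01, -0.06 and -0.13 in the mock/cre+ tumours, with no overlap. Of the 7 members tested, the cre+ pair did not overlap for HAS3, CD44, HMMR and UGDH, against 24.4% of all genes. The difference of HAS3 was 0.31 ± 0.08 (SE, adjusted p = 0.00436), a call that ended on the low-spike arrays (0.22, adjusted p = 0.1) and after adjustment for the 3'/5' ratio (0.30, adjusted p = 0.0927), while LhTERTL and mock differed by 0.01 (adjusted p = 0.938) with overlapping tumours. Averaged over both pairs it was 0.16 ± 0.05 (adjusted p = 0.0253). This call came from 1 probe set: 223541_at gave 0.26 and 1552980_at 0.07 (adjusted p = 0.581). Probe set 223541_at also rose in LhTERTL/cre+ against LhTERTL (0.35, adjusted p = 0.0312), where 2.24% of all probe sets were called. The gene's call ended after adjustment for the 3'/5' ratio (0.16, adjusted p = 0.158), on the low-spike arrays (0.10), and without LhTERTL 1, mock 3 or the mock/cre+ tumours. In RefSeq the HAS3 gene overlaps TANGO6, DERPC and CHTF8, so signal could be shared.

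UGDH set 1 line apart from the other 3. Its signal was 0.89, 0.57, 0.83 and 0.77 in the mock/cre+ tumours, against -0.16, -0.12, 0.42 and -0.22 in the mock tumours, and the groups did not overlap. Mock 3 was the highest mock tumour. LhTERTL/cre+ tumours read 0.01, -0.27, -0.24 and 0.11, and LhTERTL tumours -0.01, -0.07, 0.25 and -0.04, close to mock.

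UGDH rose by 0.78 ± 0.13 in mock/cre+ against mock (SE, adjusted p = 0.000402) and fell by 0.86 in LhTERTL/cre+ against mock/cre+ (adjusted p = 8.09e-05). LhTERTL differed from mock by 0.05 (adjusted p = 0.844). Members called in the cre+ pair were 3 of 7, with 28.0% of all genes called (15% higher and 13% lower), and in LhTERTL against mock also 3 of 7, with 20.3% called (12.3% higher and 7.99% lower). The telomere difference of UGDH differed between the pairs by -0.92 ± 0.18 (adjusted p = 0.00381), and 3 of 8 members were so called, against 10.6% of all genes (4.98% higher and 5.63% lower). The average fall of UGDH between long and short telomeres (-0.41, adjusted p = 0.00201) was -0.02 (adjusted p = 0.953) without the mock/cre+ tumours. Adjusted for the 3'/5' ratio, which was also highest in mock/cre+, the average fall was -0.27 (adjusted p = 0.130) and the difference between pairs -0.73 (adjusted p = 0.0533), but the call between mock/cre+ and mock held (0.60, adjusted p = 0.0364).

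The hyaluronidases of the chromosome 3 cluster moved little. HYAL2 read 0.27, 0.25, 0.22 and 0.14 in LhTERTL tumours, against -0.22, -0.24, -0.06 and -0.17 in mock tumours, with no overlap. In this comparison the tumours did not overlap for 4 of the 7 members tested, which were HYAL2, HYAL3, CD44 and HMMR, against 25.0% of all genes. The HYAL2 rise of 0.39 ± 0.07 (SE, 1.31-fold, adjusted p = 0.000798) was not matched in LhTERTL/cre+ against mock/cre+, where it was 0.06 (adjusted p = 0.578) and the tumours overlapped. The 2 differences differed by -0.33 ± 0.10 (adjusted p = 0.0449), a call that ended in 11 of 16 fits that each left out 1 tumour and after adjustment for the 3'/5' ratio (-0.17, adjusted p = 0.384). After that adjustment HYAL2 was called in the cre+ pair (0.27, adjusted p = 0.0441).

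HYAL1 ranged from -0.29 to 0.38 over the 16 tumours and was called in none of the 6 comparisons. HYAL3 differed by 0.18 ± 0.09 between long and short telomeres (adjusted p = 0.115). It was called without mock/cre+ 4 (0.25, adjusted p = 0.0104), without LhTERTL/cre+ 4 (0.22, adjusted p = 0.0486) or adjusted for the 3'/5' ratio (0.41, adjusted p = 0.00395). HYAL3, HYAL1 and HYAL2 are neighbours in RefSeq, and HYAL3 overlaps NAA80. Each hyaluronidase was read by 1 probe set, of the type that can match several transcripts.

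CD44, read by 13 probe sets, differed by probe set. Its mean signal was -0.21, -0.09, -0.15 and -0.26 in the mock/cre+ tumours, against 0.20, 0.07, 0.07 and 0.27 in the mock tumours, with no overlap. In LhTERTL tumours it was -0.06, -0.08, -0.08 and -0.05, and in LhTERTL/cre+ tumours -0.09, 0.09, -0.07 and -0.05, between those lines. Mock/cre+ and mock differed by -0.33 ± 0.06 (SE, adjusted p = 0.00175). CD44 fell in LhTERTL against mock as well (-0.22, adjusted p = 0.0233), a call lost without LhTERTL 2 (-0.21), LhTERTL 3 (-0.21), mock 1 (-0.20) or mock 4 (-0.18), at adjusted p of 0.0518 to 0.0883, but it did not pass the test in the cre+ pair (0.15, adjusted p = 0.109) or between long and short telomeres (-0.04, adjusted p = 0.621). The telomere differences of the 2 pairs differed by 0.36 ± 0.09 (adjusted p = 0.016), which was not called on the low-spike arrays (0.35, adjusted p = 0.0784) or after adjustment for the 3'/5' ratio (0.27, adjusted p = 0.144).

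Of the 13 CD44 probe sets, 7 fell in mock/cre+ against mock by 0.39 to 0.69, where 14.9% of all probe sets were called. The same 7 were called for the difference between pairs (0.50 to 0.82), where 6.66% of all probe sets were called, and 5 of them rose in the cre+ pair, with 23.5% called, and 1 fell in LhTERTL against mock, with 16.3% called. The probe sets 217523_at (-0.56) and 1565868_at (-0.62) fell between long and short telomeres, where 28.4% of all probe sets were called, and did not pass the test between mock/cre+ and mock. The other 4 passed in none of these. The files do not say which transcripts each probe set reads, so no isoform was assigned. The call of the mean between mock/cre+ and mock ended when the 8 probe sets that can match several transcripts were left out (-0.11, adjusted p = 0.39) and when adjusted for the 3'/5' ratio (-0.23, adjusted p = 0.0933). Without those 8 the long and short difference passed (-0.27, adjusted p = 0.000608).

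**Figure D4:**
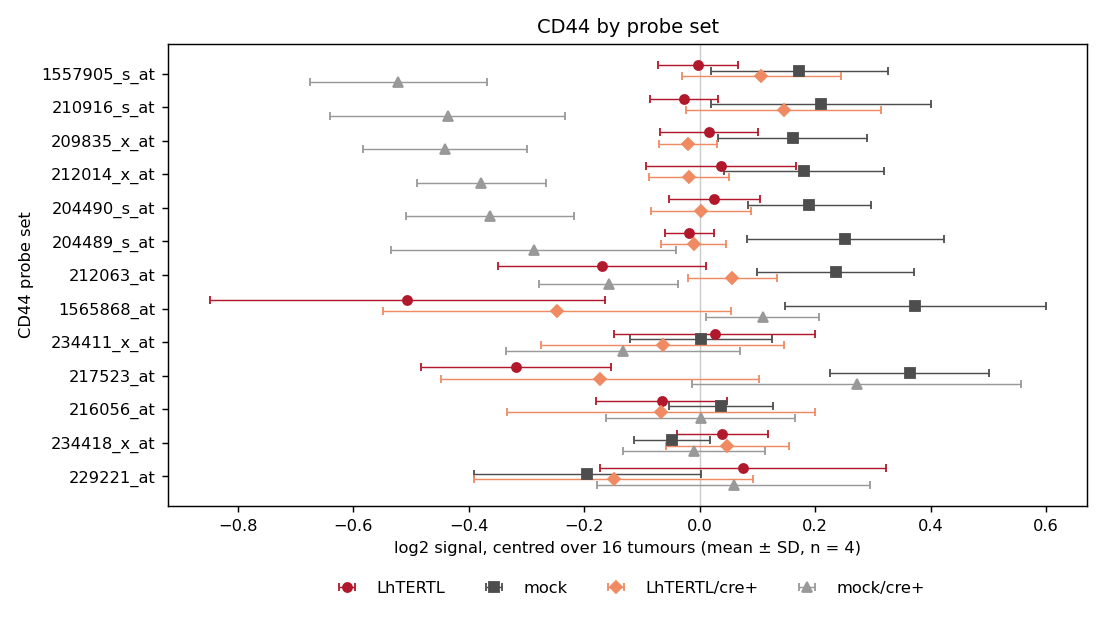
Mean and SD of the centred log2 signal of the 13 CD44 probe sets in the 4 lines, ordered from the lowest difference between mock/cre+ and mock. In the upper 7 probe sets mock/cre+ lay below mock, and in 217523_at and 1565868_at both long-telomere lines lay below both short-telomere lines.

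HMMR, read by 2 probe sets, rose in both pairs. It read 0.36, 0.19, 0.38 and 0.22 in LhTERTL tumours, against -0.18, -0.25, -0.53 and -0.47 in mock tumours. In the cre+ pair it read 0.36, 0.50, 0.27 and 0.45 in LhTERTL/cre+ tumours, against -0.91, -1.17, -0.47 and -0.39 in mock/cre+ tumours. All 8 long-telomere tumours lay above all 8 short-telomere tumours, as did 6.20% of all genes in either direction.

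The HMMR difference was 0.89 ± 0.10 between long and short telomeres (SE, 1.85-fold, adjusted p = 2.19e-06), 0.65 in LhTERTL against mock (adjusted p = 0.00255) and 1.13 in the cre+ pair (adjusted p = 1.03e-05). It was 0.96 when adjusted for the 3'/5' ratio and 0.89 on the low-spike arrays. The pairs differed by 0.48 (adjusted p = 0.125). In mock/cre+ against mock HMMR was at -0.38 and not called (adjusted p = 0.061), but its probe set 209709_s_at alone was (-0.45, adjusted p = 0.0206). HMMR was also called there with array weights (-0.43, adjusted p = 0.0183) and without mock 3, mock/cre+ 3 or mock/cre+ 4. Proliferation markers, a list for a process that HMMR takes part in, rose in 11 of 11 between long and short telomeres, against 18.5% of all genes, with a median of 0.62, and the mean of the list lay between 0.14 and 0.31 in LhTERTL, 0.12 and 0.40 in LhTERTL/cre+, -0.40 and -0.17 in mock and -0.71 and -0.32 in mock/cre+ tumours. Among them were PCNA, the DNA polymerase clamp (0.76), CDK1, the mitotic kinase (0.99), RRM2, a ribonucleotide reductase subunit (1.06), and MKI67 (0.80). In mock/cre+ against mock 5 of the 11 fell, against 10% of all genes. When adjusted for the 3'/5' ratio 2 fell, where 1835 of the 20282 genes were called in either direction. The part of these markers in the HMMR difference was not tested.

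Partners of HMMR at the spindle rose in 8 and fell in 2 of 12, against 18.5% and 14.1% of all genes, with a median of 0.29. KIF11, a mitotic motor, rose by 0.98, FAM83D, which carries a kinase to the spindle, by 0.87, TPX2, a spindle assembly factor, by 0.72 and BARD1, a partner of BRCA1, by 0.29. AURKA, the kinase that TPX2 activates, was at 0.18 and did not pass (adjusted p = 0.0685), though AURKA passed after adjustment for the 3'/5' ratio (0.29, adjusted p = 0.039) and without mock/cre+ 4 (0.22, adjusted p = 0.0201).

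The upstream 250 bases of HMMR and UGDH are shown because the calls of these members differed. HMMR rose in both comparisons of long with short telomeres, and UGDH was called in both comparisons that hold mock/cre+. They come from RefSeq GRCh38.p14 and were searched on both strands for the cell cycle element TTTGAA, the CCAAT box CCAAT and the GC box GGGCGG. In HMMR capitals mark the cell cycle elements and CCAAT boxes, and in UGDH the GC boxes.
HMMR, chr5:163460382-163460631, plus strand: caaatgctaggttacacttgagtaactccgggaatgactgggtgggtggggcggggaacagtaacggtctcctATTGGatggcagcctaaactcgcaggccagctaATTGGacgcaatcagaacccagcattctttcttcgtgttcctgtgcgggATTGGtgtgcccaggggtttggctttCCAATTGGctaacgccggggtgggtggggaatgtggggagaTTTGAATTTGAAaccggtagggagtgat
UGDH, chr4:39527440-39527689, minus strand: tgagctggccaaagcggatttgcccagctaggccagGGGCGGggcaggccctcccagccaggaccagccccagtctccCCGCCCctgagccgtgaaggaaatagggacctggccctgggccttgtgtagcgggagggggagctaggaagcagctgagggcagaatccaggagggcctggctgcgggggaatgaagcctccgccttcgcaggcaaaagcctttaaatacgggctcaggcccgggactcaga
HMMR holds 2 cell cycle elements, the nearer 17 bases before the start, 5 CCAAT boxes of which 2 overlap, and 1 GC box that is not capitalised. UGDH holds 2 GC boxes and neither of the others. Among 35116 promoters of this length the cell cycle element stands in 13.3%, the CCAAT box in 32.0% and the GC box in 42.6%. A match is a description of letters and not a binding site. Of 9 spindle partners with a promoter 3 hold the cell cycle element and 5 the CCAAT box.

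The other genes that make hyaluronan and its precursors rose in 2 and fell in 1 of 7 between long and short telomeres, where 18.5% of all genes rose and 14.1% fell. PGM3, which makes an intermediate of UDP-N-acetylglucosamine, rose by 0.97 ± 0.10 (SE, adjusted p = 1.44e-06), GNPNAT1, an acetyltransferase of the same pathway, by 0.16, and UGP2, which makes UDP-glucose for UGDH, fell by 0.26. Without the mock/cre+ tumours GNPNAT1 was at -0.03 and UGP2 at 0.02. The calls of both also ended on the low-spike arrays and with quantile normalisation, and that of GNPNAT1 after adjustment for the 3'/5' ratio. On the low-spike arrays, which are fewer, 1 gene of this list was called, and the share of all genes called on them is not given here.

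Between mock/cre+ and mock the list split, with 2 of 7 higher and 4 lower, against 9.0% and 10% of all genes. UGP2 rose by 0.55, as UGDH, the next enzyme of its branch, had done, and GFPT1, an entry enzyme of the hexosamine pathway named after its values were seen, by 0.36. PGM3 (-0.57) and UAP1 (-0.53), enzymes of the UDP-N-acetylglucosamine branch, fell, as did GNPNAT1 (-0.36) and GFPT2 (-0.58), which was named after its values were seen. The PGM3 call there ended after adjustment for the 3'/5' ratio (-0.46, adjusted p = 0.171), with quantile normalisation (-0.40, adjusted p = 0.0999) and on the low-spike arrays (-0.64, adjusted p = 0.0621).

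**Figure D5:**
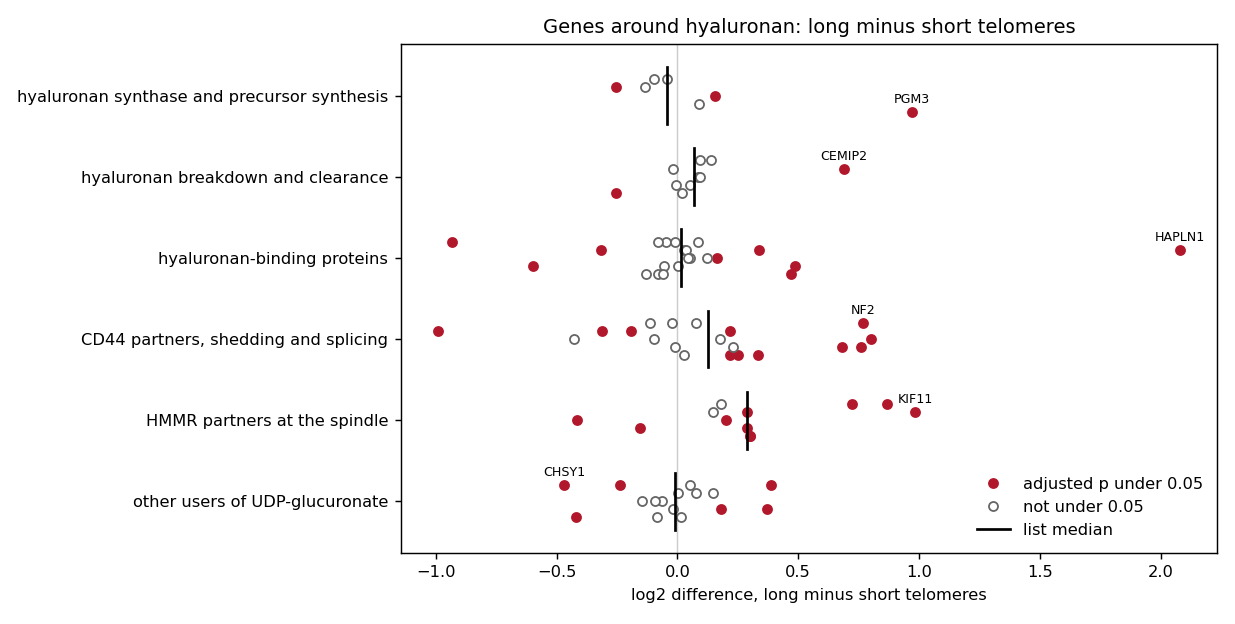
Log2 differences between long and short telomeres for the genes of 6 lists around hyaluronan, 1 point per gene, with the list median as a vertical bar and the gene of smallest adjusted p in each list named. Filled points passed an adjusted p of 0.05. HAPLN1 was the farthest to the right, and spindle partners lay mostly above 0.

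Other breakdown and clearance genes rose in 1 and fell in 1 of 10, against 18.5% and 14.1% of all genes, with a median of 0.07. The 1 that rose was CEMIP2, a cell surface hyaluronidase (0.69 ± 0.06, SE, adjusted p = 1.44e-07). CEMIP2 rose in LhTERTL against mock (0.72) and in the cre+ pair (0.65). It was lower in mock/cre+ than in mock (-0.33, adjusted p = 0.008) and in LhTERTL/cre+ than in LhTERTL (-0.40, adjusted p = 0.0123). Other proteins that bind hyaluronan rose in 5 and fell in 3 of 22, near the 18.5% and 14.1% of all genes, with a median of 0.02. HAPLN1, a link protein that ties hyaluronan to proteoglycans, rose by 2.08 ± 0.28 (adjusted p = 2.06e-05). It was at -0.34 in LhTERTL/cre+ 4, below the other 7 long-telomere tumours and below mock/cre+ 3 at 0.31, and the difference was 2.27 without that tumour. C1QBP rose by 0.49, and TLR2, an innate receptor, and PTX3, a pentraxin of the hyaluronan matrix, fell by 0.60 and 0.32. The PTX3 fall was in LhTERTL against mock (-0.75, adjusted p = 0.000212) and not in the cre+ pair (0.12, adjusted p = 0.533). PTX3 fell most in mock/cre+ against mock (-1.15, adjusted p = 5.04e-06). On the low-spike arrays 5 of the hyaluronan-binding list were called, against 8 on all arrays. Those arrays are fewer, and the share of all genes called on them is not given here.

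VCAN and TNFAIP6 were named after their values were seen. VCAN, the proteoglycan versican, rose in LhTERTL against mock (1.04, adjusted p = 8.69e-05) and was at -0.36 in the cre+ pair, where it was not called (adjusted p = 0.0726) but fell without LhTERTL/cre+ 4 (-0.50, adjusted p = 0.00995), and its pairs differed by -1.40 (adjusted p = 0.00044). TNFAIP6, which transfers heavy chains onto hyaluronan, fell by 0.93 between long and short telomeres (adjusted p = 0.0118), with tumours of LhTERTL/cre+ from -2.61 to 0.11. The TNFAIP6 call ended on the low-spike arrays (-0.88, adjusted p = 0.119), after adjustment for the 3'/5' ratio (-0.66, adjusted p = 0.236) and without the mock/cre+ tumours (-0.98, adjusted p = 0.0621).

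CD44 partners, shedding enzymes and splicing factors rose in 8 and fell in 3 of 20, against 18.5% and 14.1% of all genes, with a median of 0.13. NF2, the tumour suppressor merlin, which binds the tail of CD44, rose by 0.77, RDX, radixin, by 0.80, KHDRBS1, a splicing factor of CD44, by 0.25 and SRGN, the proteoglycan serglycin, by 0.33. Without the mock/cre+ tumours 7 of the list were called, not KHDRBS1 (0.14, adjusted p = 0.0928), and after adjustment for the 3'/5' ratio SRGN was not (0.24, adjusted p = 0.0503). The share of all genes called without those tumours is not given here. ESRP1, an epithelial splicing factor that acts on CD44, was named after its values were seen. It read 2.06, 1.48, 2.34 and 1.81 in the mock/cre+ tumours, against -0.58, -0.82, 0.84 and -1.89 in the mock tumours, a difference of 2.53 ± 0.45 (SE, adjusted p = 0.000762).

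Other users of UDP-glucuronate rose in 3 and fell in 3 of 16, near the 18.5% and 14.1% of all genes, with a median of -0.01. CHSY1, a chondroitin synthase, fell by 0.47 and EXT1, a heparan sulphate polymerase subunit, by 0.42, while UXS1, which turns UDP-glucuronate into UDP-xylose, rose by 0.39 and EXTL3 by 0.18. On the low-spike arrays, or adjusted for the 3'/5' ratio, 3 of the list were called, not EXTL3. The shares of all genes called in those fits are not given here.

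The probes are human, and RNA of the mouse host reaches them by cross-hybridisation alone. Beside 18.5% of all genes that rose and 14.1% that fell, of 15 fibroblast markers 5 rose and 0 fell by limma. Among them were FBLN1 (0.40), COL5A1 (0.37) and COL6A3, a collagen VI chain (0.70). COL6A3 rose in the cre+ pair (1.15) and was not called in LhTERTL against mock (0.25, adjusted p = 0.346). COL5A1 rose in LhTERTL against mock (0.62) and was not called in the cre+ pair (0.13, adjusted p = 0.332). The fibroblast list means ran from 0.06 to 0.20 in LhTERTL, 0.01 to 0.08 in LhTERTL/cre+, -0.11 to 0.01 in mock and -0.19 to 0.06 in mock/cre+ tumours. Of 12 endothelial markers 3 rose and KDR, a VEGF receptor, fell (-1.18). Of 13 macrophage markers MSR1, a scavenger receptor, rose (0.19) and AIF1 fell (-0.26). Of 8 adipocyte markers FABP4, a fatty acid binding protein (2.79), and CFD (0.37) rose. AIF1 and the endothelial marker PECAM1 were not called after adjustment for the 3'/5' ratio. CFD, PECAM1 and the fibroblast marker COL1A1 were not called on the low-spike arrays, where 3 fibroblast markers rose. The macrophage marker TYROBP and the adipocyte marker PPARG were called on those arrays, though not in the main fit. Without the mock/cre+ tumours the endothelial markers ESAM and ROBO4 were not called, and 1 endothelial marker rose and 1 fell. The part of all these markers in the differences of the hyaluronan genes was not tested.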

How the data were processed

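Each of 16 tumours was hybridised to 1 array. The authors deposited log2 signals made with RMA, per the submitters' processing notes. These values are also centred for each probe set on its median over the 16 arrays, since no such median departs from 0 by more than 0.5 millionths. Platform, annotation and genome build are not given in the sources used here. Of 54675 probe sets, 62 were controls, 41476 named 1 gene, 961 several and 12176 none. Those of 1 gene were averaged into 20282 genes, of which 19252 matched the reference gene table.

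A model with a mean for every line was fitted to all arrays together in limma 3.58.1 (R 4.3.3), two-sided, with p-values adjusted by Benjamini-Hochberg across the 20282 genes and a threshold of 0.05, and to probe sets likewise over 54613. The SE is that of the fit. The members, the gene lists and the tests were chosen with earlier results of these data known. Named genes were all members, up to 4 genes per list, taken by smallest adjusted p between long and short telomeres, and the 6 most like HAS2; GFPT1, GFPT2, VCAN, TNFAIP6, ESRP1 and AURKA were named after their values were seen. HYALP1 was not measured, and 1 gene of the breakdown list is not reported here. No HAS2 sequence is printed. Promoters were matched by symbol.

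On simulated data with known changes, 92.2% of differences of 0.5 and 99.4% of differences of 1 were recovered between long and short telomeres among 20282 genes, with a mean of 11.4 false calls. The simulation changed 200 genes and drew noise for each gene independently, from its spread within lines. It held no other difference between lines. In the data 32.6% of genes were called in this comparison, so the simulated rates need not hold there. Precision is limited by having 4 arrays a group. Tumours are independent per the labels, and p-values measure the spread among tumours of 1 line. Tables and figures used numpy 2.4.6, pandas 2.3.3 and matplotlib 3.10.9 under Python 3.11.15.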

Additional observations from a re-analysis of the deposited data

Results flagged for a closer look

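HAS2 in tumour LhTERTL/cre+ 4 was at 0.21, while the nearest other tumour of its line was at 2.15, a gap of 0.922 of the group's range. UGDH in tumour mock 3 was at 0.42, with the nearest other mock tumour at -0.12 and a gap of 0.838 of the range. Both passed Dixon's critical value for 4 tumours; 32 groups were looked at, and chance flags about 1 in 20.

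The telomere differences of the pairs differed by a test of that difference for HYAL2 (-0.33), CD44 (0.36) and UGDH (-0.92).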

How the results depend on the processing

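The totals here include HAS2 in the comparisons of long with short telomeres that had chosen it, where it was not tested. All of its values there counted as kept, which is no test of HAS2. Over the members, 717 of 768 values kept both their sign and their side of the threshold when 1 array was left out, as did 473 of 518 under other settings and 57 of 114 with 1 probe set alone. The sign turned in 19, 14 and 29 of them, of HAS2, HAS3, HYAL1, HYAL3, CD44 or UGDH. In 9 of those, all of CD44 with 1 probe set alone, the value or its alternative was called. Those were 0.23 for 1557905_s_at between long and short telomeres; 0.27 for 229221_at, 0.0231 for 234411_x_at and 0.0869 for 234418_x_at in LhTERTL against mock; -0.44 for 217523_at in the cre+ pair; 0.25 for 229221_at and 0.0378 for 234418_x_at in mock/cre+ against mock; and -0.48 for 229221_at and -0.0296 for 234418_x_at in the difference between pairs. Without the mock/cre+ arrays, an alternative chosen for these genes after seeing the data, ESRP1 (0.27), GNPNAT1 (-0.0255) and UGP2 (0.0205) turned in sign between long and short telomeres.

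Members called between long and short telomeres were 4. With each line averaged first they were 0, where limma called 0 genes of all (the smallest adjusted p was 0.156, and 3215 had an unadjusted p under 0.05), since only 2 lines stand on each side. With a difference of at least 1.5-fold also required, 1 member each was called for long against short telomeres, for LhTERTL against mock and for the difference between pairs. The share of all genes under that rule was not counted. In mock/cre+ against mock the members called were 5 with array weights, where 5057 of all genes were called. After adjustment for the 3'/5' ratio they were 1, where 1835 genes were called, against 3863 in the main fit. In the difference between pairs 1 of the 5 members still measured was called without probe sets that can match several transcripts, and 1497 genes in all. After adjustment for the ratio 0 members were called there and 974 genes in all, against 2151 in the main fit. The causes were not tested. Leaving out 1 array gave 3 to 5 members for long against short telomeres, 2 to 3 for LhTERTL against mock, 3 to 4 in the cre+ pair, 2 to 3 in mock/cre+ against mock, 0 in LhTERTL/cre+ against LhTERTL and 2 to 4 in the difference between pairs. The shares of all genes called in those fits are not given here.

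Replicate numbers did not pair tumours across lines: equal-numbered arrays correlated at -0.325 to 0.369 over 24 pairs, with 9 pairs over 0.1, and only 4 of the 16 arrays had their best match in their own number. With the replicate number as a block 4, 3, 3, 3, 0 and 2 members were called in the 6 comparisons in the same order, the loss being HYAL2 in the difference between pairs (-0.33, adjusted p = 0.0618). The shares of all genes called with that block are not given here. The planned comparison with the second deposited table was not run, because 0 of its cells differ. In LhTERTL against mock 74.4% of simulated differences of 0.5 were recovered, with 200 genes changed, so smaller ones can be missed.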
